A study of Mus musculus with 5 samples.

Results

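Kinesins are motor proteins that hydrolyse ATP to walk along, cross-link or take apart microtubules. Mitotic kinesins build the spindle, move chromosomes and complete cytokinesis, and their transcripts are known to accumulate in late S phase, G2 and mitosis. Transport kinesins carry vesicles, mitochondria, endosomes and lysosomes through the cytoplasm of dividing and resting cells alike, and lysosome position set by such motors is known to bear on where autophagosomes meet lysosomes. The kinesin genes described here are the rows of the deposited expression table with a symbol of the form Kif plus a number and an optional a, b or c, or Kifc plus a digit. The pattern matched 41 of 52459 rows, of which 13 were set as mitotic, 15 as transport and 13 as other kinesins (cilia, control of microtubule length, or no settled role).

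The libraries came from HY15549 mouse pancreatic cancer cells, a line of C57BL/6 strain background. All groups carried the GFP-LC3-RFP reporter of autophagy flux and were grown as organoids in Matrigel with serum, with no drug treatment named. The organoids were dissociated and sorted by the ratio of green to red fluorescence into cells with high autophagy flux, named AThi (2 libraries), and cells with low flux, named ATlo (3 libraries). The cells are 1 line, and no label says whether the biological replicates are separate cultures. The p-values therefore reflect only how much these libraries varied, which may be technical. Levels are in FPKM (fragments scaled to transcript length and library depth), on which genes of different length can be compared. Depths implied by the low values were 27.6 to 45.0 M reads (M, 1e+06). The 5 epithelial markers (Epcam, Krt8, Krt18, Krt19 and Cdh1) summed to 3477 to 4366 FPKM in the libraries, while none of the immune, fibroblast or endothelial markers exceeded 0.14 FPKM in any library. The mitochondrially encoded share of all FPKM, a sign of RNA quality or of cell state, was 7.51% and 10.04% in AThi and 5.53 to 5.98% in ATlo, and its part in the results below was not tested.

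The DNA just upstream of the annotated start is shown for 4 mitotic kinesins, 1 kinesin of cilium control and 3 transport kinesins. The sequences are from RefSeq (GRCm38.p6), run 5′ to 3′ on the gene's strand and end at the base before the start. Capitals mark matches on either strand to a CHR, the cell cycle genes homology region bound by the MuvB complexes (TTTGAA or TTCGAA, in reverse TTCAAA), or to a CCAAT box, bound by NF-Y (CCAAT, in reverse ATTGG). The genes were chosen with the motif matches known. Kif11, Kif15 and Kif22 are the mitotic kinesins with a CHR match in the stretch shown, Kif24 holds the other form of it, and Kif18b and the 3 transport kinesins shown hold none there.
Kif11 (chr19:37376302-37376381, plus strand): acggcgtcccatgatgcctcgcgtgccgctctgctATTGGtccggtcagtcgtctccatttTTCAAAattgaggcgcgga
Kif15 (chr9:122951001-122951080, plus strand): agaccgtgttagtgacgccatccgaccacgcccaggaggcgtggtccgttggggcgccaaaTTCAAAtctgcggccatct
Kif22 (chr7:127042421-127042500, minus strand): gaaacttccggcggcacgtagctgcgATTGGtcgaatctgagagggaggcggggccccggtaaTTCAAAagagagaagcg
Kif18b (chr11:102925125-102925204, minus strand): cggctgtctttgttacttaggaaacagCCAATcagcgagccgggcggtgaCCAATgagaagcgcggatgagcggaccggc
Kif24 (chr4:41464849-41464928, minus strand): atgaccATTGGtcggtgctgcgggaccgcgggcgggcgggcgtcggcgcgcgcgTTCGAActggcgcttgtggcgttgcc
Kif3a (chr11:53567289-53567368, plus strand): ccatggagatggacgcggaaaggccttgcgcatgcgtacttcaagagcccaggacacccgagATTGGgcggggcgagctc
Kif3b (chr2:153291336-153291415, plus strand): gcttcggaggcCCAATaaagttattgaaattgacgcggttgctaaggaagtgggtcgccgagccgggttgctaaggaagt
Kif16b (chr2:142901465-142901544, minus strand): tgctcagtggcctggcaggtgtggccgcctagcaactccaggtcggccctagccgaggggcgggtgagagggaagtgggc

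The comparison of AThi with ATlo asks which transcripts differ with autophagy flux between cells of the same tumour line. Mitotic kinesin transcripts were several-fold lower in AThi, while the summed level of the transport kinesins overlapped between the populations, with single members higher or lower. Summed over the 13 mitotic kinesins, the level was 24.7 and 26.1 FPKM in AThi, against 135, 155 and 180 FPKM in ATlo. The AThi sums lie far under the ATlo sums, and the ATlo mean was 6.16-fold the AThi mean. The 15 transport kinesins summed to 155.4 and 162 FPKM in AThi and to 155.7, 159.5 and 158 FPKM in ATlo. Here the groups overlapped, the AThi mean being 159 ± 4.72 (SD, n = 2) and the ATlo mean 158 ± 1.97 FPKM (SD, n = 3). Mitotic motors therefore made up 11.6 ± 0.04% (SD, n = 2) of all kinesin FPKM in AThi and 45.7 ± 3.39% (SD, n = 3) in ATlo. In bulk RNA of sorted cells, a smaller number of dividing cells and less of these transcripts per cell cannot be told apart.

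**Figure D1:**
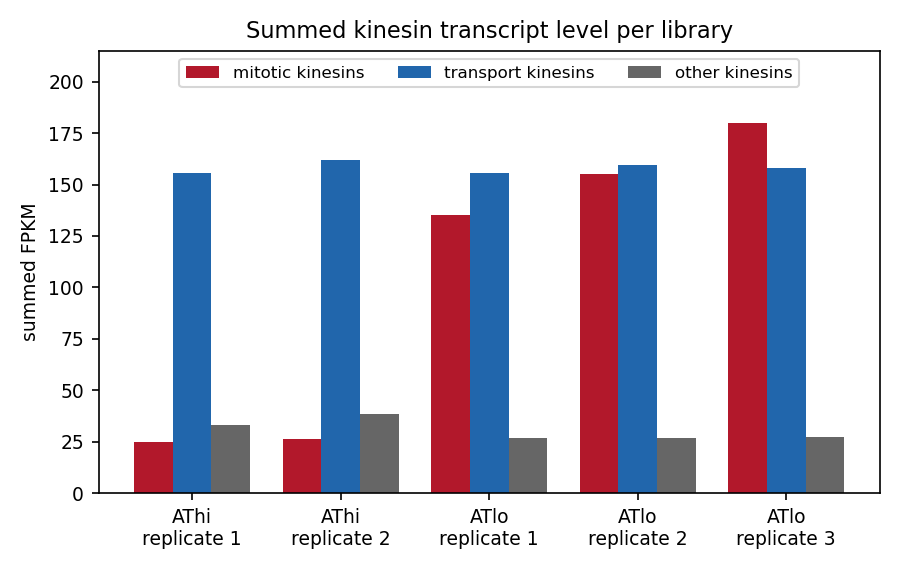
Summed FPKM (vertical axis, from 0) of the mitotic, transport and other kinesins in each of the 5 libraries. The mitotic bars are at 24.7 and 26.1 FPKM in AThi and at 135 to 180 FPKM in ATlo, while the transport bars stay between 155.4 and 162 FPKM in all 5.

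The test was limma on log2(FPKM + 0.5) for genes whose 5 libraries averaged 1 FPKM or more, with Benjamini-Hochberg adjustment over all 11397 genes tested. Fold changes below are AThi minus ATlo on that scale, which understates the change of low genes, and a gene is said to have risen or fallen where its adjusted p was under 0.05. Of the kinesins, 28 passed the filter, namely 11 mitotic, 12 transport and 5 other genes. Just inside it were Kif5c and Kif21a, with means of 1.07 and 1.32 FPKM, and just outside it Kif18a and Kif24, with 0.98 and 0.95 FPKM. Of the 11 tested mitotic kinesins all 11 fell, where 29.4% of all genes tested fell, and each of the 11 was at least 2-fold lower, which held for 4.17% of all genes. Their libraries did not overlap between the groups, and 38.4% of all genes tested were likewise lower in AThi without overlap. Their median log2 fold change was -2.69, against -0.03 over all genes. Since 6 of the 11 reached the filter through their ATlo level alone, this count is a description of them. The other 5 (Kif20a, Kif23, Kif11, Kif22 and Kif20b) had a mean above 1 FPKM in both groups. Of the 12 tested transport kinesins 4 rose and 2 fell, where 22.2% of all genes tested rose and 51.6% passed in either direction. The other 6 did not pass, and the median over the 12 was 0.04. A rise of at least 2-fold was found in 1 of the 12 and in 2.38% of all genes. Of the 5 others 3 rose, 1 fell and 1 did not pass. Kif5c reached the filter through its ATlo level alone and Kif19a through its AThi level alone, so that these counts too are descriptions. No test of the roles against each other was made.

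**Figure D2:**
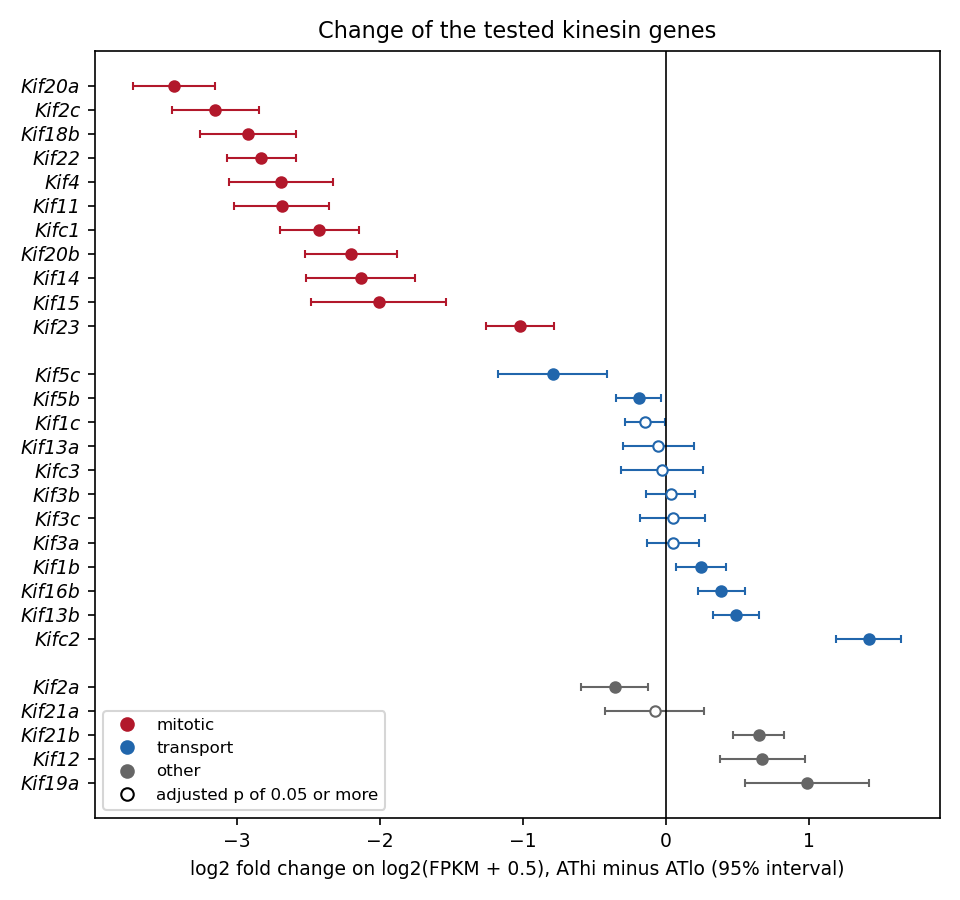
Log2 fold change (horizontal axis, AThi minus ATlo) of the 28 tested kinesin genes with its 95% interval from limma, grouped by role. Filled points passed an adjusted p of 0.05, and the mitotic genes lie between -3.44 and -1.02 while the transport genes lie between -0.79 and 1.42.

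Motors that set up the bipolar spindle were all far lower in AThi. Kif11 (chr19:37376403-37421859, plus strand, GRCm38) encodes the kinesin-5 motor that pushes the spindle poles apart. It was at 4.11 and 3.52 FPKM in AThi and 23.9, 25.8 and 33.0 FPKM in ATlo, so that its lowest ATlo library was several times its highest AThi library, and its log2 fold change was -2.69 ± 0.14 (SE; limma adjusted p = 4.58e-05). Kif15, whose motor can keep the poles apart when the kinesin-5 motor is inhibited, was at 0.23 and 0.19 FPKM against 1.72, 2.63 and 2.87 FPKM (-2.01 ± 0.20, SE; limma adjusted p = 0.000338). Kifc1, a minus-end directed motor that focuses poles and clusters extra centrosomes, was at 0.89 and 1.08 FPKM against 6.74, 7.32 and 8.44 FPKM (-2.43 ± 0.12, SE; limma adjusted p = 3.78e-05). In each of these motors the highest AThi library lay well under the lowest ATlo library. Kifc1 has a close copy, Kifc5b, with 96.8% identity over 2312 aligned bases of their longest coding transcripts, so reads may be split between them and both values are uncertain. Kifc5b had 0.88 and 1.15 FPKM in AThi against 2.77, 3.48 and 4.53 FPKM in ATlo, and the sum of both genes had a log2 fold change of -2.21 ± 0.14 (SE).

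Motors that act on chromosomes and on microtubule ends had some of the largest ratios. Kif2c (chr4:117159639-117182639, minus strand) encodes a depolymerase that frees wrongly attached kinetochore microtubules. It was at 0.56 and 0.61 FPKM in AThi and 7.81, 9.29 and 10.6 FPKM in ATlo, a ratio of means of 15.8 and the largest of the tested kinesins on the linear scale, with about 67 and 120 reads behind the AThi values. Its log2 fold change was -3.15 ± 0.13 (SE; limma adjusted p = 3.32e-05). Kif18b, which works with Kif2c at growing microtubule ends, was at 0.80 and 0.89 FPKM against 7.94, 10.3 and 11.2 FPKM (-2.92 ± 0.14, SE; limma adjusted p = 3.78e-05). The chromokinesin Kif22, which pushes chromosome arms outward, was at 1.13 and 1.20 FPKM against 10.1, 11.5 and 12.6 FPKM (-2.83 ± 0.10, SE; limma adjusted p = 3.32e-05). AThi and ATlo libraries of these genes were separated by a wide gap. The chromokinesin Kif4, which also acts in the anaphase midzone, was at 0.41 and 0.51 FPKM against 4.64, 6.02 and 6.61 FPKM (-2.69 ± 0.15, SE; limma adjusted p = 5.66e-05). Kif18a, which damps chromosome oscillation at metaphase, lay just under the filter at 0.30 and 0.25 FPKM in AThi and 1.14, 1.41 and 1.8 FPKM in ATlo. In the limma fit with no filter on low values it fell by 1.32 on the log2 scale (adjusted p = 0.00849). Kif2b, a spindle depolymerase, was listed at 0 in all 5 libraries.

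Among the cytokinesis motors 1 gene moved much less than the rest. Kif20a, which carries the chromosomal passenger complex to the midzone, was the most abundant mitotic kinesin of ATlo, at 38.7, 44.0 and 51.4 FPKM. In AThi it was at 3.41 and 3.87 FPKM, and its log2 fold change of -3.44 ± 0.12 (SE; limma adjusted p = 3.32e-05) ranked 6 among the falls of all 11397 genes tested. Kif14, which recruits citron kinase to the midbody, was at 0.16 and 0.25 FPKM against 2.17, 2.64 and 3.03 FPKM (-2.14 ± 0.16, SE). Kif20b, which acts late in abscission, was at 2.04 and 1.79 FPKM against 9.13, 10.4 and 12.7 FPKM (-2.21 ± 0.13, SE). Kif23 (chr9:61915905-61946774, minus strand) encodes the motor of centralspindlin, which bundles midzone microtubules and has a place in the intercellular bridge. It was at 10.67 and 11.96 FPKM in AThi and 20.97, 23.76 and 25.94 FPKM in ATlo, a ratio of 2.08, with no overlap between groups and a log2 fold change of -1.02 ± 0.10 (SE; limma adjusted p = 0.000331). Its interval of -1.26 to -0.78 does not meet that of any other tested mitotic kinesin, the nearest being that of Kif15, which ends at -1.54. Kif23 alone made up 43.2% and 45.8% of the mitotic kinesin FPKM in the AThi libraries and 14.4 to 15.5% in ATlo. Without it, the mitotic sum was 14.04 and 14.2 FPKM in AThi and 114 to 154 FPKM in ATlo, a ratio of means of 9.44. Racgap1, whose product is the partner of Kif23 in centralspindlin, was at 2.82 and 2.93 FPKM in AThi and 15.4, 18.3 and 19.1 FPKM in ATlo, a fall by 2.42 on the log2 scale (limma adjusted p = 3.32e-05).

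**Figure D3:**
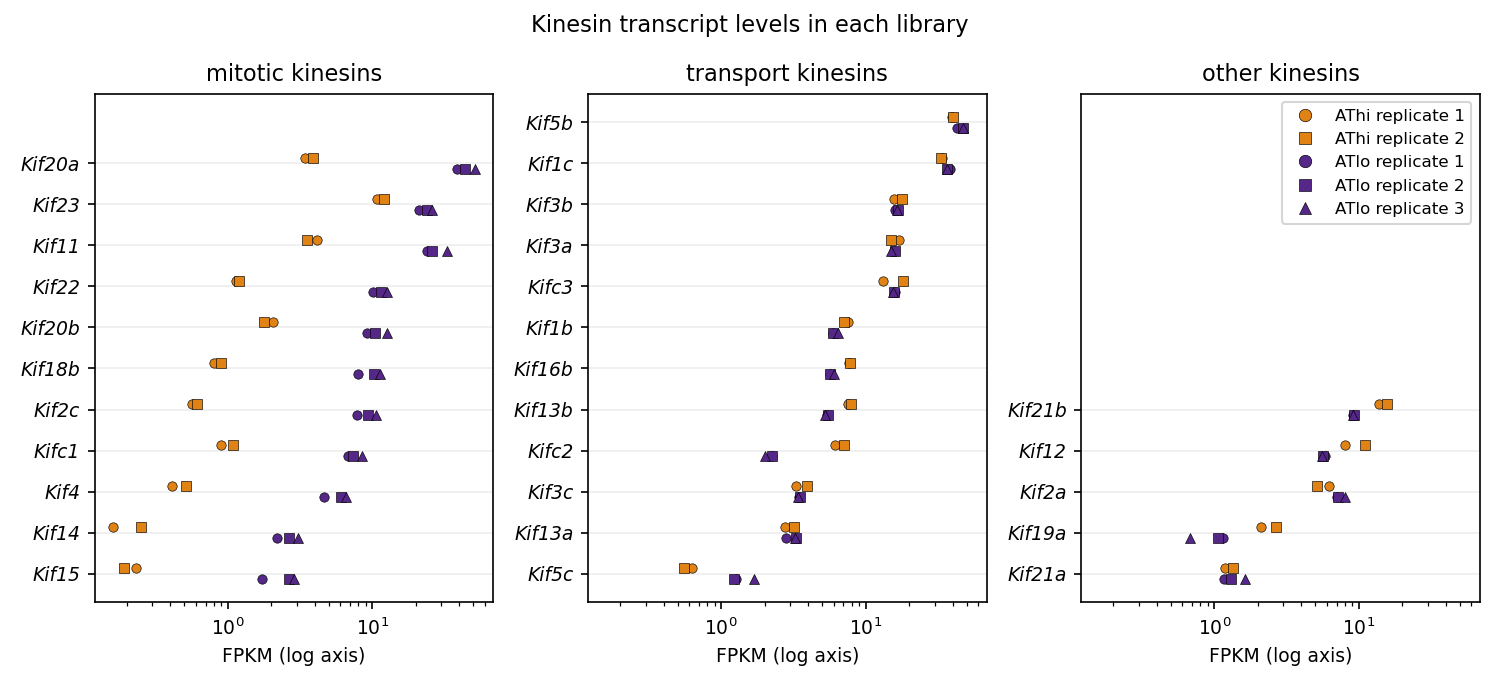
FPKM (log axis) of the 28 tested kinesin genes in each library, in 3 panels by role, with AThi in orange and ATlo in purple and a marker shape for each replicate number. In the mitotic panel the orange and purple points are apart in each row, least so for Kif23, and in most rows of the transport panel they lie close together or overlap.

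The ATlo libraries also differed among themselves in a way that the mitotic kinesins shared. In all 11 tested mitotic kinesins ATlo replicate 1 was the lowest and ATlo replicate 3 the highest library, an order found in 1 of 12 transport kinesins, 2 of 5 others and 23.3% of all genes tested. The 11 genes come from the same libraries and are not independent readings of the comparison. With any 1 library left out all 11 kept their call, and their median then ranged from -2.78 to -2.55.

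Genes of the partners of mitotic motors fell as well. Of 22 tested genes of a list of spindle and cytokinesis partners, 21 fell and 1 rose, where 29.4% of all genes tested fell and 22.2% rose, with a median log2 fold change of -2.69 against -0.03 over all genes. Hmmr and Aspm, with AThi means of 0.96 and 0.39 FPKM, reached the filter through their ATlo level alone. The list also holds Kifc5b, the close copy of Kifc1, so this count too is a description. Birc5 and Aurkb, of the chromosomal passenger complex, changed by -3.64 ± 0.13 and -3.32 ± 0.14 (SE), Tpx2, a spindle assembly factor, by -3.25 ± 0.15 (SE), and the polo-like kinase gene Plk1 by -3.19 ± 0.13 (SE). Cenpe, the kinesin-7 motor of the kinetochore, whose symbol the pattern does not match, was at 1.04 and 1.31 FPKM in AThi and 8.05, 10.3 and 12.2 FPKM in ATlo. The genes of the list with the highest mean level were Incenp, which fell by 2.33 on the log2 scale, and Numa1, which tethers dynein at spindle poles and is nuclear between divisions. Numa1 was the 1 gene that rose, with 34.6 and 34.8 FPKM in AThi above 27.6, 27.5 and 29.9 FPKM in ATlo (0.29 ± 0.06, SE; limma adjusted p = 0.00873). Of 12 tested tubulins, 8 fell and none of the other 4 passed, and the median over the 12 was -0.90. All but Tubg1 encode subunits of the microtubule track. Over all genes tested 29.4% fell and 51.6% passed in either direction. Tuba1a changed by -2.75 ± 0.17, Tubb6 by -2.51 ± 0.15, Tuba1b by -1.48 ± 0.11 and the nucleation subunit Tubg1 by -0.98 ± 0.06 (SE). The tubulin genes with the highest mean over the 5 libraries, Tubb5 and Tuba4a, changed by -0.85 ± 0.11 and -0.47 ± 0.09 (SE). Tubulin genes are close in sequence, so reads may be split among them and their values are uncertain.

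Kinesin-1 is the main motor for mitochondria and for many vesicles and moves lysosomes outward. Its ubiquitous heavy chain Kif5b was the most abundant kinesin in AThi, at 39.4 and 40.0 FPKM, against 42.7, 46.9 and 46.8 FPKM in ATlo. The groups did not overlap, but the log2 fold change was only -0.19 ± 0.07 (SE) with a limma adjusted p of 0.0479, and the call was lost under other scalings (adjusted p = 0.109 rescaled to TPM and 0.398 after quantile normalization) and without any 1 library except ATlo replicate 1. The heavy chains known mainly from neurons were low. Kif5c was at 0.63 and 0.55 FPKM in AThi and 1.27, 1.22 and 1.70 FPKM in ATlo (-0.79 ± 0.16, SE; limma adjusted p = 0.00612), and Kif5a did not exceed 0.23 FPKM in any library. Beside Kif5c, the neuronal marker list summed to 0.61 and 0.74 FPKM in AThi and to 1.34 to 1.47 FPKM in ATlo, of which Snap25 made up most, while Elavl3 and Rbfox3 were at 0 in all libraries. The part of neuron-like transcripts in the Kif5c result was not tested.

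Kinesin-2 motors carry cilium components and late endosomes. None of the 3 tested kinesin-2 genes passed the threshold, which 51.6% of all genes tested passed in either direction. Kif3a was at 17.1 and 15.1 FPKM in AThi and 15.6, 16.1 and 14.9 FPKM in ATlo, and its partner Kif3b at 15.7 and 17.7 FPKM against 15.9, 16.7 and 16.4 FPKM. The groups overlapped in both genes, and the 95% intervals of the log2 fold change were -0.13 to 0.23 for Kif3a and -0.14 to 0.20 for Kif3b, which leave room for a change of little more than 0.2. Kif3c, the alternative partner of Kif3a, was at 3.27 and 3.91 FPKM on either side of 3.43, 3.52 and 3.4 FPKM in ATlo, with an interval of -0.18 to 0.27. Their adaptor Kifap3 did not pass either, at 0.02 ± 0.08 (SE). Kif17, a kinesin-2 known from dendrites and cilia, was under the filter at 0.32 and 0.40 FPKM in AThi and 0.11, 0.07 and 0.04 FPKM in ATlo, which are about 40 and 82 against 7 to 21 reads. With no filter on low values Kif17 rose by 0.59 (limma adjusted p = 0.00926).

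Kinesin-3 motors carry early and late endosomes, dense-core vesicles and lysosomes. Kif13b, Kif16b and Kif1b rose by small amounts, while Kif1c and Kif13a did not pass, where 22.2% of all genes tested rose. Kif13b (chr14:64647265-64809617, plus strand), which binds the polarity scaffold Dlg1, was at 7.59 and 7.96 FPKM in AThi and 5.44, 5.51 and 5.22 FPKM in ATlo (0.49 ± 0.07, SE; limma adjusted p = 0.00127). Kif16b, which binds PI3P on early endosomes, was at 7.67 and 7.80 FPKM against 5.67, 5.66 and 6.06 FPKM (0.39 ± 0.07, SE; limma adjusted p = 0.0034). Their AThi libraries all lay above their ATlo libraries, a separation in that direction found in 31.9% of all genes tested. Kif1b, linked to lysosome and mitochondrion transport, was at 7.60 and 7.03 FPKM against 5.91, 5.96 and 6.43 FPKM (0.24 ± 0.07, SE; limma adjusted p = 0.0308), and its call was kept with a library left out only without ATlo replicate 3. Kif1c, which moves integrin-bearing vesicles and mRNA, was the second most abundant transport kinesin at 33.7 and 33.1 FPKM in AThi and 38.4, 36.6 and 36.3 FPKM in ATlo. Its libraries did not overlap, and its log2 fold change of -0.15 ± 0.06 (SE) missed the threshold (limma adjusted p = 0.0709). Kif13a, which carries recycling endosomes, had an interval of -0.30 to 0.20, and the neuronal Kif1a was listed at 0 in all 5 libraries.

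The largest rise of any tested kinesin was in a minus-end directed motor. Kifc2, known as a motor of neuronal multivesicular cargo, was at 6.18 and 7.06 FPKM in AThi and 2.23, 2.25 and 2.00 FPKM in ATlo. The AThi libraries were about 3 times the ATlo libraries (ratio of means 3.06), with a log2 fold change of 1.42 ± 0.10 (SE; limma adjusted p = 8.63e-05), which ranked 108 among the rises of all 11397 genes. It lies on chromosome 15 (76659858 to 76668196, plus strand, GRCm38), and 4.15% of its exon length overlaps exons of Cyhr1 on the other strand. Cyhr1 had a log2 fold change of 0.17 ± 0.07 (SE). Kifc3, which acts at adherens junctions and in apical transport, did not pass, at 13.3 and 18.0 FPKM in AThi on either side of 16.0, 15.8 and 15.6 FPKM in ATlo.

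**Figure D4:**
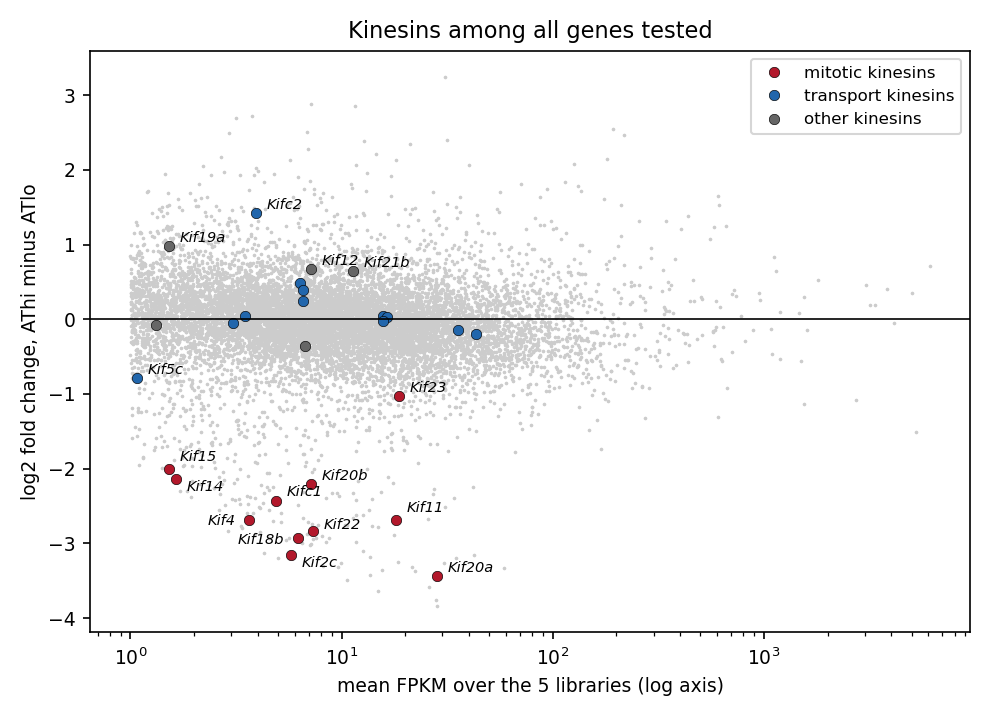
Log2 fold change (vertical axis, AThi minus ATlo) against the mean FPKM over the 5 libraries (log axis) for the 11397 genes tested, in grey, with the tested kinesins coloured by role. The mitotic kinesins lie along the lower edge of the cloud apart from Kif23 at -1.02, and Kifc2 lies near its upper edge at 1.42.

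Partners of the transport motors showed small changes. Of 37 tested genes of a list of kinesin light chains, adaptors, dynein and dynactin, 8 fell and 4 rose while 25 missed the threshold, none changed by 2-fold or more, and the median was -0.01. Over all genes tested 29.4% fell and 22.2% rose, and 4.17% and 2.38% did so by at least 2-fold. The JNK scaffold gene Mapk8ip1, whose product links kinesin-1 to cargo and to LC3, rose, with 3.26 and 3.14 FPKM in AThi above 1.87, 1.81 and 1.68 FPKM in ATlo (0.69 ± 0.10, SE). The dynein light chain Dynll1, the dynactin filament subunit Actr1a and the kinesin-1 light chain Klc2 changed by -0.53 ± 0.08, -0.51 ± 0.06 and -0.44 ± 0.09 (SE). The genes of the list with the highest mean over the 5 libraries, Dynlrb1 and Dctn3, changed by -0.22 ± 0.07 and -0.09 ± 0.07 (SE), of which the first passed the threshold (limma adjusted p = 0.0324).

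Among the other kinesins, motors with roles in microtubule length and in cilia were in part higher in AThi. Kif21b (chr1:136131389-136177998, plus strand), which limits microtubule growth, was the most abundant of them at 13.7 and 15.7 FPKM in AThi and 9.07, 9.28 and 9.14 FPKM in ATlo (0.65 ± 0.08, SE; limma adjusted p = 0.000623). Kif12, known from kidney, liver and pancreas, was at 7.97 and 11.0 FPKM against 5.86, 5.62 and 5.57 FPKM (0.67 ± 0.13, SE; limma adjusted p = 0.00439). Kif19a, a depolymerase that sets cilium length, was at 2.09 and 2.67 FPKM against 1.15, 1.06 and 0.68 FPKM (0.98 ± 0.18, SE; limma adjusted p = 0.00429). The groups were apart in all of these, a separation in that direction found in 31.9% of all genes tested. Kif9, a motor of motile cilia, was under the filter at 0.98 and 1.14 FPKM against 0.49, 0.44 and 0.33 FPKM, and rose by 0.76 with no filter on low values (limma adjusted p = 0.0165). The multiciliated cell markers summed to 1.79 and 2.07 FPKM in AThi and 1.09 to 1.21 FPKM in ATlo, mostly Rsph1, with Dnah5 and Mcidas at 0 in all libraries, and their part in the Kif19a and Kif9 values was not tested.

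Kif2a, a depolymerase of both spindle poles and resting cells, was lower in AThi by less than its relative Kif2c, a difference in size that was not tested. It was at 6.22 and 5.16 FPKM in AThi and 7.08, 7.16 and 8.01 FPKM in ATlo (-0.36 ± 0.10, SE; limma adjusted p = 0.0205), and the call was lost without AThi replicate 2 (adjusted p = 0.126) or without ATlo replicate 3 (adjusted p = 0.0533). Kif21a did not pass, with an interval of -0.43 to 0.27. Kif24, which restrains cilium formation at the mother centriole, was under the filter at 0.52 and 0.36 FPKM in AThi and 1.35, 1.32 and 1.20 FPKM in ATlo, and fell by 0.93 with no filter on low values (limma adjusted p = 0.00999). Kif7, of Hedgehog signalling, and its relative Kif27 did not exceed 0.71 and 0.31 FPKM. Kif6, Kif26a and Kif26b did not exceed 0.01 FPKM, and Kif28 was listed at 0 in all libraries.

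Some members share exons with a gene on the other strand, and no source used here says whether the counting used strand. Kif20a shares 29.3% of its exon length with Cdc23 (log2 fold change -0.03), Kif2a 19.2% with Dimt1 (-0.24), Kif4 15.1% with Pdzd11 (-0.49), and Kif3c 35.3% with 1110002L01Rik (0.23). Reads of these pairs may not be told apart, and their values are uncertain to that extent.

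The promoter windows of RefSeq, from 250 bases before to 50 after a start, were found for 32 of the 41 kinesin genes. No window was found for Kif20a among the mitotic genes, or for Kif5a, Kif5b, Kif13b, Kifc2 and Kifc3 among the transport genes. Kif19a, Kif21b and Kif28 among the others lacked a window as well. In the 250 upstream bases, a CHR match stood in 5 of 12 mitotic, 1 of 10 transport and 3 of 10 other kinesins, against 14.3% of the tested genes and 19.6% of all genes with a window. A CCAAT match stood in 8 of 12, 3 of 10 and 4 of 10, against 40.9% of the tested genes and 37.5% of all genes. In the kinesin windows no CHR match shared a base with a CCAAT match. In the full window, a CHR match stood in 10 of 12 mitotic kinesins, 1 of 10 transport and 3 of 10 others, and in 16.2% of the tested genes. The exceptions among the mitotic genes were Kif18a and Kif2b. In the sequences printed above, the CHR match of Kif11 and of Kif15 ran from -19 to -14 and that of Kif22 from -17 to -12, where the start is 0, and Kif24 held the TTCGAA form from -26 to -21. In Kif18b, Kif20b, Kif23, Kif4 and Kifc1 the match nearest the start lay after it, within 24 bases. Within 50 bases on either side of the start, a range chosen after these positions were seen, a match stood in 8 of 12 mitotic, 1 of 10 transport and 2 of 10 other kinesins and in 4.44% of the tested genes. Such a match is a string of letters and not a measured binding site.

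**Figure D5:**
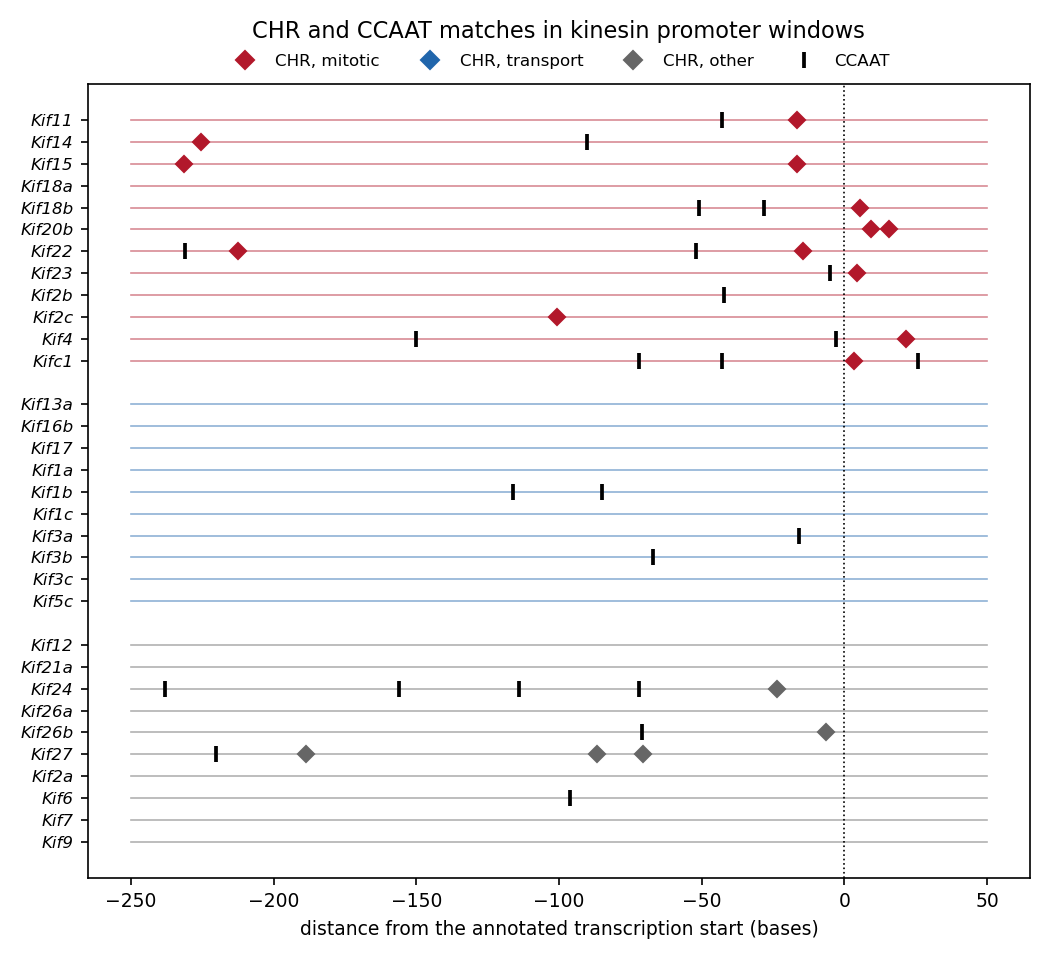
Positions of CHR matches (diamonds) and CCAAT matches (bars) against the distance in bases from the annotated start, in the first listed window of each of the 32 kinesin genes. Diamonds gather near the start in the mitotic rows, and the transport rows hold none in these windows, the 1 transport match being in a further window of Kif1a.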

How the data were processed

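The authors deposited 1 table of FPKM (5 libraries, 52459 genes, rounded to 2 decimals), made with STAR, featureCounts, bcl2fastq and DESeq2 on mm10 or GRCm38, per the submitters' processing notes. No version, annotation release, strand setting or FPKM formula is given in the sources used here. Members, roles, lists and tests were chosen with earlier results of these data known. Each member with a mean of at least 1 FPKM is named, and of each partner list the 4 largest changes past the threshold and the 2 highest levels. Genes outside this rule (Cenpe, Racgap1, Kifc5b, Kifap3 and overlapping genes) were added after their values were seen. Testing used limma 3.58.1 in R 4.3.3 (lmFit, eBayes with trend, group as the only term) on log2(FPKM + 0.5), two-sided, threshold 0.05 after Benjamini-Hochberg adjustment, and was tested on simulated data. Depth was read from single-exon genes of up to 200 bases, whose products of FPKM and length were whole multiples of a step (tolerance 0.1 of a step). Read numbers given as "about" follow from it and cover counting error only. Gene models are GENCODE M21 (GRCm38). Protein features were not analysed here. Alternatives changed the pseudocount, filter, scaling, moderation, threshold, replicate block and libraries.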

Additional observations from a re-analysis of the deposited data

How the results depend on the processing

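All 11 mitotic calls, and those of Kifc2, Kif13b, Kif16b, Kif21b, Kif12, Kif19a and Kif5c, were kept in each alternative that tested the gene, and no gene changed direction against a call. Of 140 values with a library left out 10 lost a call, and of 271 others 10 did, all of them in Kif5b, Kif1b and Kif2a. With a minimum mean of 5 FPKM fewer genes were tested, and 7 of 7 mitotic genes fell and 1683 of all genes tested rose. The 1 transport gene that fell at this setting was Kif5b (limma adjusted p = 0.0449), and Kif5c was not tested. Transport falls numbered 1 (Kif5c in place of Kif5c and Kif5b) with no filter on low values, rescaled to TPM, after quantile normalization, without trend, with the replicate block and at an adjusted p under 0.01, and 1 to 2 with a library left out. At 0.01, 0 of the other kinesins fell and 1508 genes rose overall. Other kinesins that fell numbered 0 to 1 with a library left out. Samples with the same replicate number deviated together (r = 0.20 and 0.30 across 11397 genes, which are not independent), but there are only 2 such pairs. The deviations of the 2 AThi libraries from their mean mirror each other, so the 2 values are not separate readings. The titles of each pair share a code, whose meaning no label gives. With the replicate block the mitotic median was -2.55, and Kif5b was the 1 kinesin to lose its call (adjusted p = 0.108). For Kif2b, Kif28 and Kif1a, listed at 0 in all 5 libraries, the 0 stands for fewer than 3 reads per library. At the implied depths, 3 reads would be listed as 0.03 to 0.05, 0.02 to 0.03 and 0.01 FPKM in these genes.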

Other observations

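The table held 7 further rows whose symbols begin with Kif and which the pattern left out. The pseudogene rows Kif22-ps, Kif4-ps and Kifc5c-ps were listed at 0 in all libraries. Kif1bp, whose product binds kinesins and holds several of them off microtubules, was at 6.23 and 6.06 FPKM in AThi and 5.55, 5.63 and 5.23 FPKM in ATlo, with no overlap between the groups and a limma adjusted p of 0.105. The antisense row Kif16bos was between 0 and 0.52 FPKM, with overlapping groups.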
